A study of Drosophila melanogaster with 2 samples.

Results

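The large subunit of the cytoplasmic ribosome is built from ribosomal RNA and a set of ribosomal proteins whose Drosophila genes carry symbols beginning with RpL. All protein-coding genes of the dm6 annotation whose symbol starts with RpL followed by a digit or by P were taken, which gave 54 of 13968 protein-coding genes on the chromosome arms. Genes of the mitochondrial ribosome (mRpL) have another prefix and were left out. Chromatin immunoprecipitation with sequencing (ChIP-seq) had been done on Drosophila melanogaster embryos collected at 0 to 24 hours from the transgenic strain Oaz-GFP, which carries a fusion of the zinc-finger protein Oaz to enhanced green fluorescent protein (eGFP). The immunoprecipitation used an antibody to GFP, although another label field names Oaz as the antibody. There was 1 group with 2 biological replicates, which both carried the fusion, so no contrast between conditions could be tested and all values below are descriptions. The promoter that drives the fusion and the number of embryos pooled per replicate are not stated in the sources used here, and whole embryos mix many cell types.

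Ribosomal proteins are needed in near-equal amounts by every growing cell, and in flies many of their genes cause the Minute phenotype of slow growth and thin bristles when 1 copy is lost. Transcription of these genes in Drosophila starts at a pyrimidine-rich initiator, the TCT motif, in place of the usual initiator, and many of their promoters hold a DNA replication-related element (DRE), bound by the factor DREF, or a site for the factor M1BP. The proteins form recognisable parts of the subunit, among them the stalk that recruits translation factors, the 5S ribonucleoprotein, the surroundings of the peptidyl transferase centre and the tunnel through which the new protein leaves.

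A gene was called bound when the summit of a peak in the authors' optimal list lay within 1000 bp of one of its transcription start sites (TSSs). The sequences at 6 of the bound promoters are shown first, because the summits of these genes and some of the motifs described below lie in them. The stretches do not cover every peak or TSS. Each is the part of a window reaching 100 bases to either side of a summit that lies outside annotated untranslated regions, with up to 25 bases kept at either end, read from the dm6 genome on the strand of the gene. Capitals mark TATCGATA (the DRE), AGTGTGACC (the M1BP site, read on the other strand as GGTCACACT) and ACAGTG.
RpL32 (chr3R:30046184-30046384, minus strand): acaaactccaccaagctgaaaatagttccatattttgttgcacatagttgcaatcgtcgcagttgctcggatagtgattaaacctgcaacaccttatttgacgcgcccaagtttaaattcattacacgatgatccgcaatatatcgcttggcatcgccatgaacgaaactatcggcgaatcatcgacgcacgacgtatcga
RpL7 (chr2L:10200950-10201028, plus strand): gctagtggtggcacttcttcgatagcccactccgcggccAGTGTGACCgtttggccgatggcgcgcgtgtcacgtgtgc
RpL14 (chr3L:8600855-8601030, plus strand): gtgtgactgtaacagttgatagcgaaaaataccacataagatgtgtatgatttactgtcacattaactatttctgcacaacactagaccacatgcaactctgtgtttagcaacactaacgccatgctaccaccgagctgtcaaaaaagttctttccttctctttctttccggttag
RpL23A (chr3L:1668645-1668845, minus strand): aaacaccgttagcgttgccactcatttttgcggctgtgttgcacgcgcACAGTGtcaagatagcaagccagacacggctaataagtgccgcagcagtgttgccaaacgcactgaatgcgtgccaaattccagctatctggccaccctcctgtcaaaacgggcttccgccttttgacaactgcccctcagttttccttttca
RpL28 (chr3L:3222936-3223135, minus strand): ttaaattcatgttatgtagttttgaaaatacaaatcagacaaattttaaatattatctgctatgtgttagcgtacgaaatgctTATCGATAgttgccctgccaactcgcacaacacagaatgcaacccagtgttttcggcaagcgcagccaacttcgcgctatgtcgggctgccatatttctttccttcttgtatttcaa
RpL27 (chr3R:25685027-25685190, minus strand): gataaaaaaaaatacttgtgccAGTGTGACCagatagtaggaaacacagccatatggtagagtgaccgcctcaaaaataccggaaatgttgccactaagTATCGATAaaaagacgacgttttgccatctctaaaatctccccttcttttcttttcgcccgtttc
The first 4 belong to the 4 strongest RpL peaks. RpL28 shows a single DRE, and RpL27 is the 1 gene whose summit window held both the DRE and the M1BP site.

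Most RpL genes were bound. A summit of the optimal list lay near a TSS at 31 of the 54 genes (57.4%, Wilson 95% interval 44.2 to 69.7), where the share among all protein-coding genes was 14.0%. The list of replicate 1 had a summit at 28 RpL genes (51.9%; 10.1% of all genes) and that of replicate 2 at 23 (42.6%; 9.57% of all genes). Both replicate lists had one at 20 (37.0%, 25.4 to 50.4; 7.76% of all genes). The RpL share was thus above that of all genes in each list, by more than the counting interval. Intervals cover counting error over genes only, and the read depth behind the peaks is unknown.

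The count rested little on the window. It was 31 genes within 250, 500 and 2000 bp, while the share of all genes bound rose from 9.07% through 11.6% to 17.9%. The nearest summit to an unbound member lay 2557 bp away, at RpL12. Bound members were found on every arm with RpL genes: 7 of 13 on 2L, 8 of 14 on 2R, 7 of 10 on 3L, 5 of 11 on 3R and 4 of 6 on X. The shares of all protein-coding genes bound on these arms were, in the same order, 14.0, 14.1, 14.9, 13.7 and 13.5%. The 31 genes had 31 distinct peaks.

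**Figure D1:**
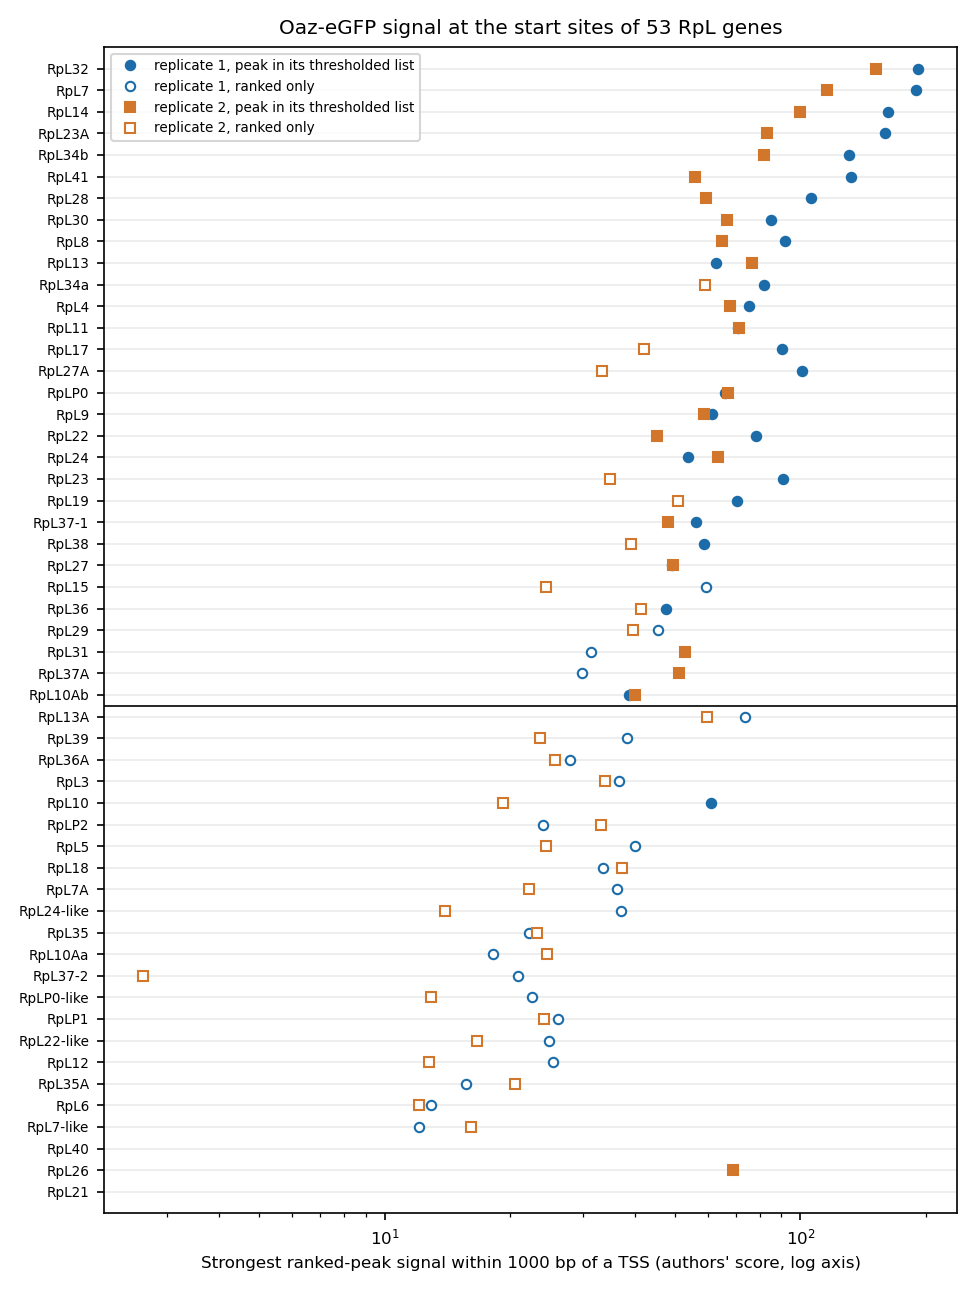
Signal of the strongest ranked peak within 1000 bp of a TSS for 53 of the 54 RpL genes (rows, ordered by signal in the list from both replicates, bound genes above the line), on a log axis in the authors' units. Circles are replicate 1, squares replicate 2, and filled symbols mark a peak in that replicate's thresholded list; RpL40 and RpL21 have no ranked peak in either replicate, and RpL26 has one in replicate 2 alone.

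The strongest RpL peaks stood high in both replicates. The peak of RpL32 (FBgn0002626), which encodes a large-subunit protein whose transcript is widely used as a reference in fly expression studies, lay at 3R 30046251 to 30046383 with a signal of 341, and with 192 in replicate 1 and 152 in replicate 2. The signal is the authors' value for each peak, in units that are not stated there or in the labels. RpL7 (FBgn0005593) followed with 305 at 2L 10200975 to 10201117, with 190 and 116 in replicates 1 and 2. RpL14 (FBgn0017579) had 261 at 3L 8600875 to 8601017, with 162 and 100. RpL32, RpL7 and RpL14 ranked 1, 2 and 3 among RpL genes in each replicate as well as in the combined list. Their ranks among the 2846 peaks of the optimal list were 170, 226 and 310, so RpL genes were not at the top of that list.

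The next strongest peak was that of RpL23A (FBgn0026372), a protein at the tunnel exit, with 235 at 3L 1668680 to 1668779 and 160 and 83.0 in replicates 1 and 2. RpL34b (FBgn0037686) had 212, with 131 and 81.9. RpL41 (FBgn0066084), which encodes the shortest protein of the ribosome, had 192, with 132 and 55.8. These peaks were higher in replicate 1 than in replicate 2. RpL28 (FBgn0035422) had 183, with 106 and 59.4. RpL30 (FBgn0086710) had 156, with 84.9 and 66.7. RpL8 (FBgn0261602), next to the peptidyl transferase centre, had 150, with 91.6 and 64.6. These peaks too were higher in replicate 1.

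Over the 31 bound genes the median signal was 134 (62.7 to 341), and over the 1919 other bound genes it was 124.5 (7.081 to 1501). The middle of the RpL values, from 94.38 to 156.1 between quartiles, lay inside that of the other genes, from 86.22 to 200.7. RpL peaks were therefore of middling height. From the top quartile of the optimal list down, the quartiles held 7, 15, 8 and 1 of them. Most were 330 bp wide (27 of 31, as were 87.1% of all arm peaks), and the 4 narrower ones were the 4 strongest, of 133 bp at RpL32, 143 bp at RpL7 and RpL14, and 100 bp at RpL23A.

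The replicates ranked the RpL peaks alike in part. Across the 31 peaks, which come from the same libraries and are not independent, Spearman's rho between the replicates was 0.511, and Pearson's r was 0.571 on the log2 scale. Replicate 1 was higher at 22 of the 31, with a median log2 ratio of 0.35 (SD 0.61, from -0.8 to 1.6), and over 1476 promoter peaks of the optimal list the median ratio was 0.39 (SD 0.53). The tilt toward replicate 1 was thus as large at promoter peaks in general.

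Of the 31 bound genes, 20 were in both replicate lists, 7 in that of replicate 1 alone, 2 in that of replicate 2 alone and 2 in neither. Those in replicate 1 alone were RpL17, RpL19, RpL23, RpL27A, RpL34a, RpL36 and RpL38. RpL23 had signals of 90.9 and 34.9 in replicates 1 and 2, and RpL38 had 58.7 and 39.1. RpL31 and RpL37A were in the list of replicate 2 alone, with signals of 30.3 and 29.2 in replicate 1 and of 52.9 and 51.0 in replicate 2. RpL15 and RpL29 were in neither, and their peaks (89.0 and 82.2) came from the list made from both replicates together. The conservative list held 27 of the 31 and lacked RpL10Ab, RpL15, RpL31 and RpL37A. Of the remaining bound genes, RpL9, RpL13, RpL24, RpL27 and RpL37-1 had signals from 91.8 (RpL27) to 147 (RpL13).

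Bound genes were found in 4 of the 5 lists of structural roles, with few genes in each. The Wilson intervals of these lists overlap, so no difference between them can be read. Of the 4 stalk genes, RpLP0 (FBgn0000100), which anchors the stalk to the ribosome, was bound with a signal of 132 (65.7 and 67.1 in replicates 1 and 2). The stalk proteins that contact translation factors, RpLP1 and RpLP2, and RpL12 at the stalk base had no optimal summit. Their strongest ranked peaks, in the authors' longer list without a threshold, had signals of 35.2, 57.7 and 34.6. The summit of the RpLP1 peak lay away from the TSS, at -948 bp, where negative is upstream. So 1 of 4 stalk genes was bound (Wilson 4.56 to 69.9%). In the 5S ribonucleoprotein, RpL11 (FBgn0013325) was bound with 137 (70.6 and 71.3), and its partner RpL5 was not. RpL5 had a ranked signal of 51.1, with 39.9 and 24.4 in replicates 1 and 2 from summits at -5 and 644 bp.

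Near the peptidyl transferase centre RpL8 was bound, while RpL3 and RpL10 were not. RpL3 had a ranked signal of 62.4 (36.7 and 33.8 in replicates 1 and 2) and a summit in the conservative list. RpL10, one of the last proteins to join the subunit, had 58.5 in the ranked list of both replicates. It had a summit in the list of replicate 1 (61.1, at -62 bp). In replicate 2 its strongest ranked peak was a different one, with 19.3 at -533 bp. At the exit tunnel 5 of 8 genes were bound. These were RpL23A, RpL4 with 141 (75.2 and 67.8), RpL17 with 135 (90.5 and 42.0), RpL19 with 115 (70.4 and 50.8) and RpL31 with 78.8. RpL35 and RpL39 were not bound, with ranked signals of 41.0 and 63.7, and RpL26 had a summit only in the list of replicate 2 (68.8). RpL40, which is made as a fusion to ubiquitin, had the lowest ranked signal of all members, 9.59, with its summit at 558 bp. Genes for proteins with a bacterial relative were bound at 11 of 21 (52.4%, 32.4 to 71.7) and the others, leaving out genes named -like, at 20 of 29 (69.0%). The second share lies inside the interval of the first, so no difference can be read.

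Where a protein has 2 gene copies or a related gene, usually 1 of them was bound. In 6 of 7 pairs exactly 1 gene had an optimal summit, and in the seventh, RpL34a and RpL34b, both had (143 and 212). The pairs include all 4 genes named -like. With 57.4% of all RpL genes bound, pairs with 1 bound gene are not unusual, and no expected count was worked out. RpL7 had 305, while RpL7-like (FBgn0032404) had a strongest ranked signal of 19.6 (12.1 and 16.1 in replicates 1 and 2). RpL22 (FBgn0015288) had 125 (78.3 and 45.1), and its paralog RpL22-like, known for its expression in the male germ line, had 35.1 (24.8 and 16.7). The bound call rests on the same signals, so the higher value of the bound gene in a pair is no separate result.

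RpLP0-like had 37.0 beside 132 at RpLP0, and RpL24-like had 47.2 beside 117 at RpL24 (53.6 and 63.4 in replicates 1 and 2). From work in yeast, the relatives of RpLP0-like, RpL24-like and RpL7-like act in subunit assembly and are not parts of the finished ribosome. None of the 4 genes named -like was bound. Among all protein-coding genes the bound share was 14.0%, so none of 4 shows no difference from genes in general. RpL37-1 had 96.3 (56.1 and 47.9), and RpL37-2 had 38.1 (20.9 and 2.62). RpL10Ab had 62.7, the lowest signal of the bound genes, and RpL10Aa had 40.0. The ranked summits of the 6 unbound partners lay away from their start sites, where negative is upstream, at -388 bp for RpL7-like, 418 bp for RpLP0-like, 681 bp for RpL22-like, -729 bp for RpL24-like, -819 bp for RpL10Aa and 901 bp for RpL37-2. Their signals are therefore not those of a peak at the promoter. Reads from near-identical copies can be hard to place, and how the authors placed them is not given in the sources used here.
For comparison with RpL7 above, the promoter of RpL7-like, which holds a DRE where none was found at RpL7, reads as follows from 250 bases upstream of its TSS.
RpL7-like (chr2L:12056076-12056350, plus strand): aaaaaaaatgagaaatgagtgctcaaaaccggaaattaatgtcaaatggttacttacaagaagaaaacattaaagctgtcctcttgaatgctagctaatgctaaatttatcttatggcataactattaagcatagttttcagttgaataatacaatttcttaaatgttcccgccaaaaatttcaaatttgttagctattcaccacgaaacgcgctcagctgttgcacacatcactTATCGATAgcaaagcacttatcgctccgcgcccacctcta
The DRE letters were thus present at a promoter without an optimal summit.

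**Figure D2:**
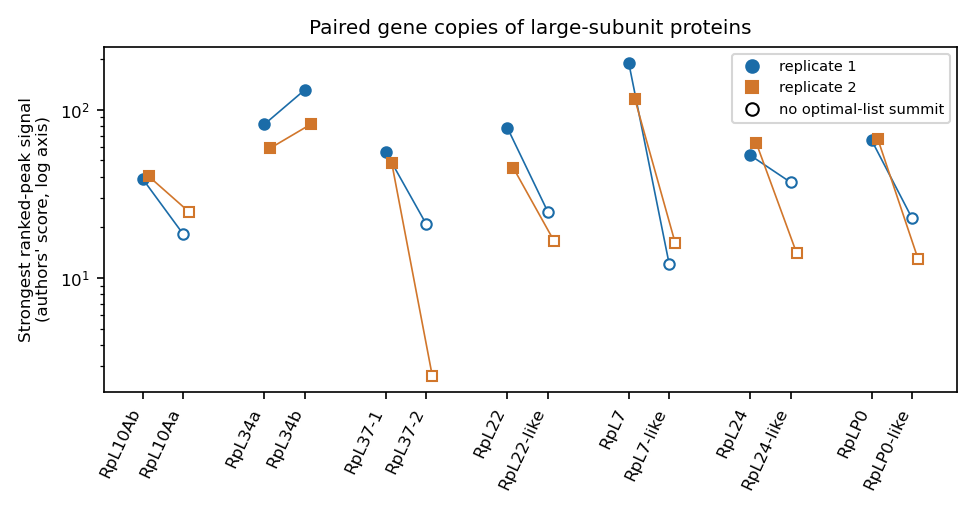
Strongest ranked-peak signal within 1000 bp of a TSS (authors' units, log axis) for 7 pairs of RpL genes, joined by a line within each replicate; circles are replicate 1, squares replicate 2, and open symbols mark genes without an optimal-list summit. In 6 pairs 1 gene has an optimal summit, a call made on the same signals plotted here, and in the pair RpL34a and RpL34b both have one.

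The 23 unbound genes were RpL3, RpL5, RpL6, RpL7-like, RpL7A, RpL10, RpL10Aa, RpL12, RpL13A, RpL18, RpL21, RpL22-like, RpL24-like, RpL26, RpL35, RpL35A, RpL36A, RpL37-2, RpL39, RpL40, RpLP0-like, RpLP1 and RpLP2. A ranked peak of any strength lay near the TSS of 52 of the 54 RpL genes, but also near 90.5% of all protein-coding genes. In replicate 1 the count was 51 (86.1% of all genes), and in replicate 2 it was 52 (81.4% of all genes). The strongest such peak had a median signal of 41.0 over the 21 unbound RpL genes with one, and of 33.6 over 10672 other unbound genes. In replicate 1 these medians were 25.7 and 21.1, and in replicate 2 they were 23.2 and 17.2. RpL18 lay just outside the threshold of the lists, with an irreproducible discovery rate (IDR, which is low for peaks that keep their rank across replicates) of 0.0105 in the ranked list against a limit of 0.01. RpL10Ab, with 0.00481, was the bound gene nearest to that limit. RpL21 had no ranked peak in any of the 3 ranked lists.

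RpL13A (FBgn0037351) was unbound by the thresholded lists although its ranked peak passed their limit. The peak, at 3R 5624292 to 5624621 with its summit at -17 bp from the TSS, had a signal of 133 and an IDR of 0.000549 in the ranked list of both replicates. It had 73.4 (IDR 0.000619) in replicate 1 and 59.6 (IDR 0.000387) in replicate 2, values close to those of bound members such as RpLP0. None of the thresholded lists contains it. In all, 155 ranked peaks past the limit are missing from the optimal list, 172 from that of replicate 1 and 56 from that of replicate 2, and RpL13A is the only RpL gene among them each time. The reason was not tested. With ranked peaks used in place of the thresholded lists, 32 RpL genes were bound, and 14.2% of all genes. The promoter of RpL13A, from 250 bases upstream of its TSS, is given here without capitals, since it holds none of the marked motifs.
RpL13A (chr3R:5624224-5624498, plus strand): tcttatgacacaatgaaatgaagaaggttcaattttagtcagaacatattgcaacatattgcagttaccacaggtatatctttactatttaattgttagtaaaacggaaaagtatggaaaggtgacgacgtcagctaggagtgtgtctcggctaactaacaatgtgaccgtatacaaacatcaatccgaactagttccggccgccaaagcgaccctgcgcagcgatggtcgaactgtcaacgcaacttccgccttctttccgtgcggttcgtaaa

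RpL summits lay closer to the TSS than those of other bound genes. The median position was 41 bp upstream of the TSS (from 207 bp upstream to 18 bp downstream), and the median distance regardless of side was 41 bp, where it was 182 bp over the 1919 other bound genes. Summits within 50 bp of the TSS were found at 16 of 31 RpL genes (51.6%) and at 7.45% of other bound genes. Within 100 bp the shares were 80.6% and 21.2%, and within 250 bp they were 100% and 62.0%. The side was alike, with 83.9% of RpL summits and 83.7% of others upstream. The distance limits were chosen after the values were seen.

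**Figure D3:**
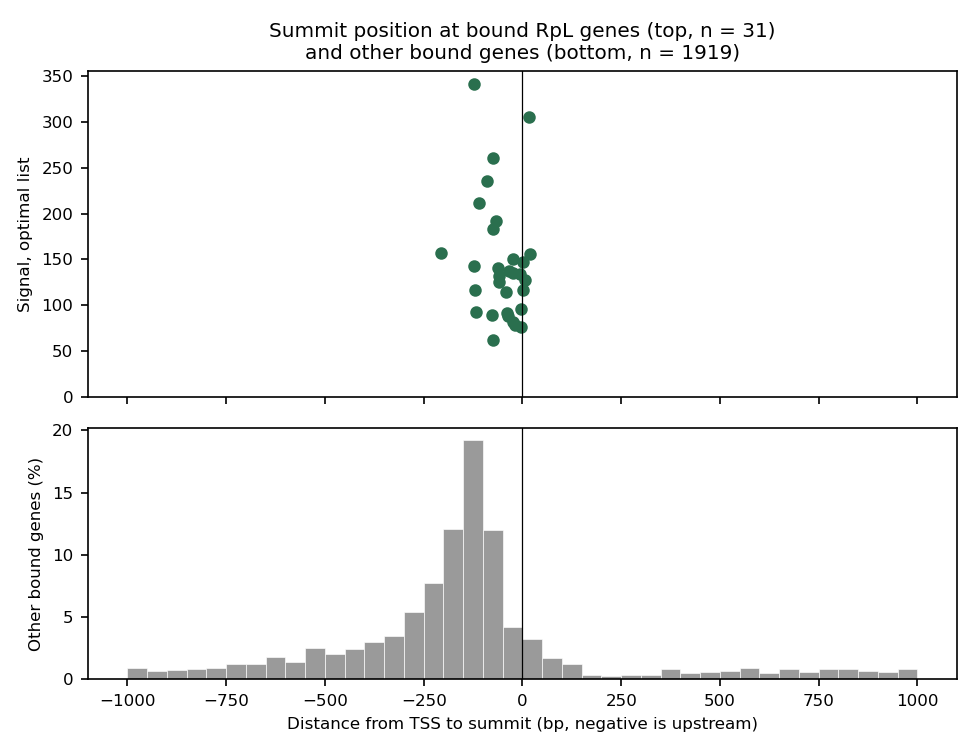
Distance from the TSS to the summit (bp, negative is upstream) for the 31 bound RpL genes against their optimal-list signal (top, points) and for 1919 other bound genes as a histogram in percent (bottom). The RpL summits lie between 207 bp upstream and 18 bp downstream, while the other summits reach 996 bp.

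Many RpL promoters face a neighbouring gene, as do those of other bound genes, so a summit cannot always be given to a single gene. At 19 of the 31 bound genes the TSS of another protein-coding gene lay within 1000 bp of the summit, on the opposite strand at all 19. At 3 of them that TSS was nearer than the RpL one. Among these were Nelf-E, a subunit of the negative elongation factor, 52 bp from the RpL14 summit, and Trmt61, a tRNA methyltransferase subunit, 105 bp from that of RpL34a. RpL13 shares its promoter with Dref, which encodes the factor that binds the DRE, and the summit lay 1 bp from the TSS of RpL13 and 85 bp from that of Dref.

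A divergent neighbour did not separate bound from unbound RpL genes. One lay within 1000 bp at 19 of 31 bound (61.3%) and 15 of 23 unbound (65.2%) RpL genes. The other bound genes had one at 59.8%, near the RpL share, and all protein-coding genes at 35.2%. Among RpL genes with such a neighbour 55.9% were bound, and among those without one 60.0%. Over all protein-coding genes these shares were 23.7% and 8.65%.

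The DRE was more frequent at RpL summits than at other promoter peaks. TATCGATA lay within 100 bp of the summit at 9 of the 31 bound genes (29.0%, 16.1 to 46.6), where other promoter peaks had it in 4.31% of 1485 windows. Among the 410 other peaks whose summit also lay within 100 bp of a TSS the share was 11.0%. The bound RpL genes with the DRE at the summit included RpL10Ab, RpL19, RpL27, RpL28, RpL34a, RpL36, RpL37-1 and RpL41. In promoters from 250 bases upstream to 50 downstream, 9 of 31 bound and 6 of 23 unbound RpL genes had the DRE, and 9.36% of all genes. The letters were thus about as common at unbound as at bound RpL promoters. The M1BP site was in 5 of 31 windows (16.1%, 7.09 to 32.6), at RpL7, RpL27, RpL27A, RpL37A and RpLP0, and in 4.63% of the other close peaks. Its promoter counts were 5 of 31 bound and 1 of 23 unbound RpL genes, and 6.04% of all genes had it.

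ACAGTG, a 6-base sequence common at the peaks of these data, was in 3 RpL windows (9.68%, 3.35 to 24.9), at RpL23A, RpL31 and RpL34b. Other promoter peaks had it in 21.1% and the other close peaks in 21.7%, both inside that interval. The count depended on the window. With 50 bp to either side of the summit it was 1 of 31 (10.7% of the other close peaks), and with 150 bp it was 8 of 31 (25.8%, against 27.6%). TATAAA, the TATA box, was in 7 windows (22.6%, 11.4 to 39.8) and in 33.9% of the other close peaks. GCACCC, described as the site of vertebrate relatives of Oaz, was in 3 windows (9.68%) and in 4.39% of the other close peaks. CACGTG, the E-box bound by Myc, was in 6 windows (19.4%, 9.19 to 36.3), at RpL7, RpL8, RpL11, RpL24, RpL29 and RpL37-1, and in 1.95% of the other close peaks. In promoters the E-box was at 5 of 31 bound and 3 of 23 unbound RpL genes, and at 4.2% of all genes. All motifs were sought on both strands. ACAGTG can share letters with the M1BP site where they adjoin, but no RpL window held both. A match is a description of letters and not a site in use.

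**Figure D4:**
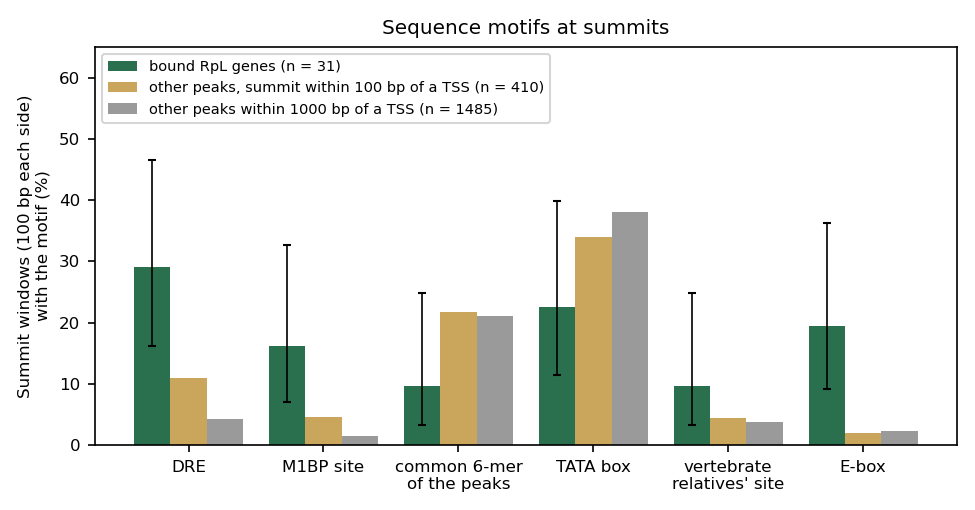
Share of summit windows (100 bp to each side; percent, bars from 0) that hold each of 6 motifs, for the 31 bound RpL genes with Wilson 95% intervals, for 410 other peaks whose summit is at most 100 bp from a TSS and for all 1485 other promoter peaks. The DRE, M1BP site and E-box bars of RpL genes (29.0, 16.1 and 19.4%) stand above both comparison bars, and those of ACAGTG (labelled common 6-mer) and the TATA box stand below them.

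Among all 6-base sequences present in at least 9 of the 31 windows, 3 had the largest shares relative to the other close peaks. The sequence AAGAAG was in 14 windows (45.2%, against 7.56%). CCGGAA was in 13 (41.9%, against 7.80%), the RpL14 and RpL27 windows above among them. CGGAAA, which shares all but its last letter with the end of that one, was in 15 (48.4%, or 4.05 times the share of the other close peaks). These sequences were ranked on these same windows, so their shares are descriptions. RpL windows were richer in G and C (median 41.8%) than those of other promoter peaks (34.3%), and the part of base composition in the motif counts was not tested.

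The pyrimidine-rich start sites of RpL genes were found at bound and unbound members. CTTT with its C within 5 bases of an annotated TSS was present at 33 of 54 RpL genes (61.1%) and at 8.06% of all protein-coding genes. It was at 21 of 31 bound RpL genes (67.7%) and 12 of 23 unbound ones (52.2%), so genes of both kinds held it. Capitals mark the CTTT in 25-base stretches from 10 bases upstream of the TSS to 14 downstream, for a strongly bound gene, the gene at the peptidyl transferase centre, the ubiquitin fusion gene with the lowest signal, the member with no ranked peak, and a bound gene without the letters at that place.
RpL32 (chr3R:30046147-30046171, minus strand): ccaccagCTTTttcttttcgcttct
RpL8 (chr3L:2587446-2587470, plus strand): gtcttcctCTTTtcttttcttttcg
RpL40 (chr2L:4227689-4227713, plus strand): ggcggccacactctCTTTtcccttt
RpL21 (chr2L:22247819-22247843, minus strand): tcaagtagccatCTTTctttctttt
RpL10Ab (chr3L:11822841-11822865, plus strand): aaccgattttcacttcctttctaaa
Genes outside RpL with CTTT at this place were bound at 19.3% (211 of 1093), where RpL genes with it were bound at 63.6% and RpL genes without it at 47.6%. The rule for these letters was chosen after start-site sequences were seen. In the RpL10Ab stretch CTTT begins just past the limit of 5 bases, so the counts depend on that limit.

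Other genes of the translation machinery were compared to show where RpL genes differ. Small-subunit (RpS) genes had a summit at 20 of 38 (52.6%, 37.3 to 67.5), with a median signal of 113 and a median distance of 44 bp from the TSS, values near those of RpL genes. Both replicate lists held 14 of the 38. The strongest was RpS27 with 312, its summit 1 bp from the TSS. Elongation factor genes, whose products act at each step of protein chain growth, had 4 of 7 (57.1%), namely eEF1alpha1, eEF1gamma, eEF2 and eEF5. The list of replicate 2 held the same 4, while that of replicate 1 held 1 of 7, eEF1gamma. The DRE was in 7 of 20 RpS windows (35.0%), the M1BP site in 1 and the E-box in 1.

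Genes for large-subunit assembly, RNA polymerase I and the mitochondrial ribosome had lower shares than RpL genes. Large-subunit assembly genes had 5 of 21 (23.8%, 10.6 to 45.1), a list that counts 3 of the -like genes, and the strongest was eIF6 with 997. RNA polymerase I genes, which transcribe ribosomal RNA, had 0 of 11, with an upper Wilson limit of 25.9%. Large-subunit genes of the mitochondrial ribosome had 6 of 47 (12.8%, 5.98 to 25.2), near the 14.0% of all genes, and its small-subunit genes had 6 of 26 (23.1%, 11.0 to 42.1). The intervals of the assembly and RpL genes overlap, and those of the other 3 groups lie below that of RpL genes. The few bound mitochondrial large-subunit genes had a higher median signal (332) and a median distance from the TSS of 150 bp.

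**Figure D5:**
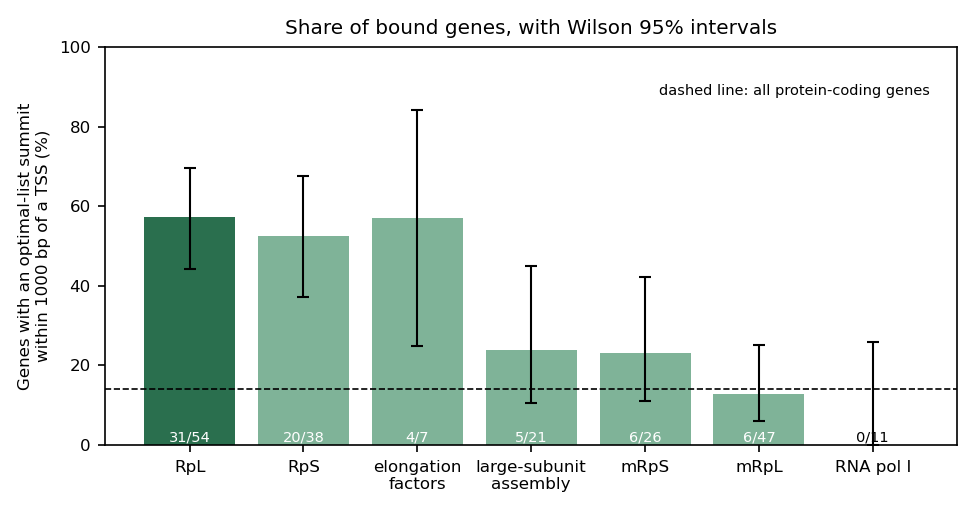
Share of bound genes (percent, bars from 0, Wilson 95% intervals, counts at the base of the bars) for 7 groups of ribosome-related genes, with a dashed line at the 14.0% of all protein-coding genes. The intervals of the RpL and RpS groups lie above the line, that of the elongation factors does so in this list but rests on replicate 2 (1 of 7 in the list of replicate 1), and the bar of mRpL genes (12.8%) lies near it.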

How the data were processed

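Peaks of Oaz-eGFP ChIP-seq from whole embryos (2 biological replicates, 1 group) were analysed. Per the labels, chromatin was sonicated and the build was dm6; which aligner and peak caller were used is not given in the sources used here. The authors' deposited lists give a signal value per peak, whose scale is not stated, and the ranked lists also give the deposited −log10 of the global IDR, converted here to the IDR itself. The optimal list (2846 peaks, 2772 on arms) and the conservative list (2524) come from both replicates, and those of replicates 1 and 2 held 1833 and 1680 peaks. Signals were used as deposited. They are compared within a list, and between the 2 replicate lists peak by peak as a description, where a common scale is not stated; 8 per-library signal columns were not used. Control reads were not analysed here, and the read depth is unknown.

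Genes and 19630 TSSs came from Ensembl release 115, and sequences from the Release 6 genome, with 0 arm peaks past an arm end. Coordinates are 1-based. The strongest summit within 1000 bp was used for each gene. Replicate signals at bound genes are those of the replicate peak overlapping the optimal peak, and for pairs, unbound genes and the plot of all members those of the strongest ranked peak within 1000 bp. No p-values were computed, because 1 group allows no contrast. Intervals are Wilson 95% intervals. Counting code was tested on simulated peaks.

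The members and gene lists were chosen with earlier results of these data known. Full values are given for the 10 strongest bound genes, the role lists and the pairs, except 1 gene that is counted but not reported here by name, and neighbours are named mainly where nearer the summit. Of 18 motifs looked at, 6 are reported; CACGTG, the 6-base sequences, the start-site rule, the comparison with peaks within 100 bp of a TSS and the use of ranked peaks were settled after values were seen. The pair RpL37a and RpL37b of the list was not found under those symbols. Alternatives changed the list, IDR, window, gene assignment and motif window. Scripts ran in Python 3.11.15 with pandas 2.3.3, numpy 2.4.6 and scipy 1.17.1, and plots were drawn with matplotlib 3.10.9.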

Additional observations from a re-analysis of the deposited data

How the results depend on the processing

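Of 57 alternatives over 5 results, 51 stayed within the tolerance, 6 moved and 0 reversed. Leaving out the genes named -like is counted among them but could change no result, since none of these genes was bound. The tolerance was 1.5 times for counts and, for medians, the SD between the values of the 2 replicates (7.12 for the signal and 16.6 bp for the position), so counts were allowed to change by more than medians. The same 2 replicate values were also among the alternatives, so the tolerance for medians is not independent of them. The count of bound RpL genes, 31, ran from 23 to 28 when either replicate was left out, and was 28 in the conservative list, 28 when the nearest TSS had to be that of the RpL gene, 22 at an IDR of 0.001 or less and 32 with ranked peaks, a choice made after seeing the data. All 22 were among the 31. The median signal moved to 144.8 at that IDR. Leaving out a replicate it ran from 66.69 to 76.75, since signals of 1 replicate are lower. The median summit position moved to -59.5 bp at that IDR and ran from -34.0 to -57.5 bp over the replicates, upstream throughout. The ACAGTG count, 3, was 1 with 50 bp to either side of the summit, 8 with 150 bp and from 2 to 4 over the replicates. No paired analysis was possible because there is 1 group. The unknown read depth limits what can be said of weak peaks.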
